A study of Homo sapiens with 10 samples.

Results

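The NFIA and NFIB loci were examined in peak lists of the coactivator MAML3 and the retinoic acid receptor RARα. The cells were SK-N-SH, a human line established from a neuroblastoma. The loci were taken as 2 fixed windows on the hg19 build, chromosome 1 from 61100000 to 62000000 for NFIA and chromosome 9 from 13980000 to 14500000 for NFIB. Every peak that reached into a window was a member. The 8 lists held 94 such peaks of 26482 in all, 40 in the NFIA window and 54 in the NFIB window. The loci were chosen by peak presence and score in these same lists. No filter on low scores was added. All counts and percentiles are therefore given as a description, without a test.

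NFIA and NFIB encode transcription factors of the nuclear factor I family, which bind DNA as dimers at paired TTGGC elements. Both are known for their part in the development of the nervous system, where they promote the formation of glia and the maturation of neurons. MAML3 is a mastermind-like protein that joins the complex of RBPJ and the Notch intracellular domain on DNA and recruits further coactivators. RARα binds DNA together with a retinoid X receptor at repeats of AGGTCA and changes its cofactors when retinoic acid binds. RefSeq (GRCh38.p14) lists NFIA on the plus strand of chromosome 1, with C1orf87 and TM2D1 as the nearest protein-coding genes, and NFIB on the minus strand of chromosome 9, between MPDZ and ZDHHC21. That table is on another build than the peak lists. No peak was therefore placed in an exon, an intron or a promoter, and the letters under the peaks were not read.

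Cells of the RA groups received 1 µM retinoic acid and cells of the UT groups received vehicle. All had been kept for 24 hours beforehand in charcoal-stripped serum. The ChIP-seq libraries were MAML3 RA, MAML3 UT, RARα RA and RARα UT, with 2 replicates in each group. The labels do not say whether replicates came from separate cultures, so their spread may be technical. The MAML3 RA lists held 7532 and 6230 peaks, against 2222 and 6759 in the MAML3 UT lists. The RARα RA lists held 1103 and 1064 peaks, against 1321 and 251 in the RARα UT lists. Read depth is unknown. A short list leaves out peaks that a longer one holds: of the peaks of MAML3 UT 2 between the 50th and 75th percentile of score, 25.4% were on MAML3 UT 1. Of the peaks of RARα UT 1 above the 75th percentile, 37.5% were on RARα UT 2. The names of the MAML3 UT lists share a library number and index, so these may be 1 library run on 2 lanes, and the list of RARα UT 2 is tagged as merged, which no label explains.

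In the NFIA window the MAML3 RA lists held 10 and 11 peaks, against 3 and 8 in the MAML3 UT lists (mean 10.5 ± 0.707 against 5.5 ± 3.54, SD, n = 2 each). In the NFIB window they held 11 and 15, against 4 and 11 (mean 13 ± 2.83 against 7.5 ± 4.95, SD, n = 2 each). Every MAML3 RA list thus had at least as many window peaks as either UT list, and in the NFIB window MAML3 RA 1 and MAML3 UT 2 were level at 11. Scaled to list length, the order depended on the scaling. MAML3 RA lists had 1.33 and 1.77 NFIA peaks per 1000 listed peaks, against 1.35 and 1.18 in the UT lists. For NFIB the RA values were 1.46 and 2.41 per 1000, against 1.8 and 1.63, so on this scale the treatments overlapped in both windows. With every MAML3 list cut to its 2222 highest-scoring peaks, the RA lists held 4 and 6 NFIA peaks, against 3 and 3 in the UT lists. For NFIB they then held 6 and 6, against 4 and 5.

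The RARα RA lists held 4 and 2 peaks in the NFIA window, against 2 and 0 in the RARα UT lists. In the NFIB window they held 5 and 4, against 4 and 0. The 0 belonged in both windows to RARα UT 2, the list of 251 peaks, and RARα UT 1 overlapped the RA lists in number. Per 1000 listed peaks, the RARα RA lists had 3.63 and 1.88 in the NFIA window, against 1.51 and 0 in the UT lists. For NFIB these were 4.53 and 3.76, against 3.03 and 0. Both RA values were above both UT values on this scale, and this order was not kept at equal length. With every RARα list cut to 251 peaks, the RA lists held 1 and 1 NFIA peaks, against 1 and 0 in the UT lists, and 1 and 0 NFIB peaks, against 2 and 0.

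**Figure D1:**
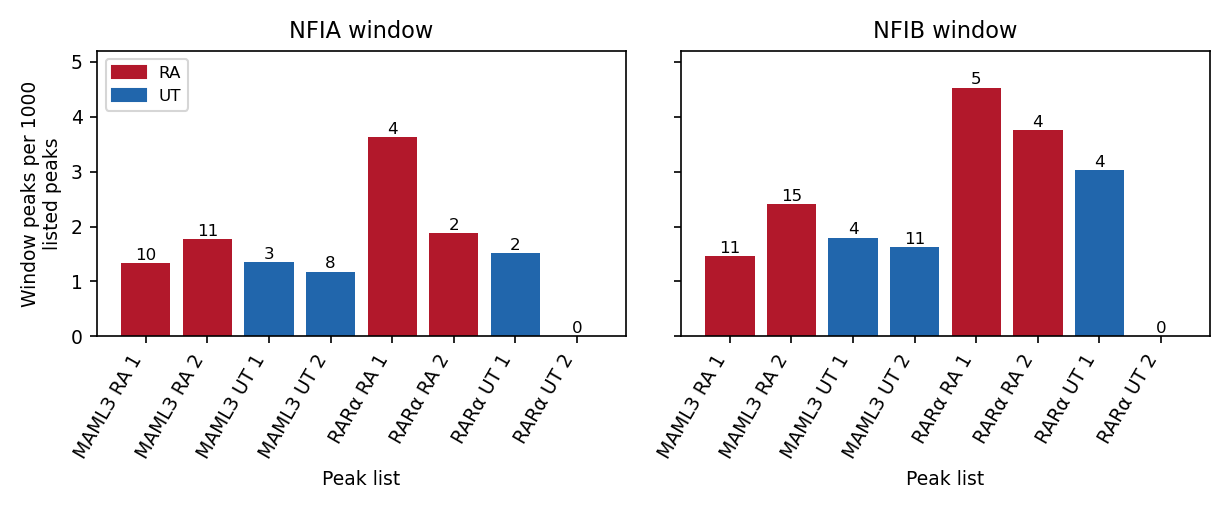
Peaks in the NFIA window (left) and the NFIB window (right) per 1000 listed peaks, 1 bar for each of the 8 lists, with the number of window peaks above each bar; RA lists are red and UT lists blue. RARα UT 2 had 0 peaks in both windows, and the other RARα lists had 1.51 to 4.53 per 1000.

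Both windows were dense in peaks. The genome was cut into consecutive stretches as wide as each window. Of 3405 stretches as wide as the NFIA window, 87 (2.56%) held 32 or more MAML3 peaks over the 4 lists, the number in the window, and 85 (2.5%) held 8 or more RARα peaks. Of 5889 stretches as wide as the NFIB window, 13 (0.221%) held 41 or more MAML3 peaks and 14 (0.238%) held 13 or more RARα peaks. The windows were chosen by their peaks in these same lists and the stretches were not, so these shares are a description and no test of density. The mean stretch of the NFIB width held 3.86 MAML3 peaks and 0.635 RARα peaks. In the 7 lists that had any, the density of peaks per Mb in the NFIA window was 4.02 to 12.3 times that of the whole list, and in the NFIB window 8.59 to 26.6 times.

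Overlapping peaks (1 bp or more) of the 4 lists of an antibody were joined into sites. The NFIA window held 13 MAML3 sites and 5 RARα sites, and the NFIB window 17 MAML3 sites and 6 RARα sites. The score that the authors gave each peak was turned into a percentile within its list, where 90 means that 90% of the peaks of that list scored as low or lower. Such percentiles rank a peak in 1 list, and between lists of unequal length they do not measure a change in binding. MAML3 peaks were wider in the RA lists, with medians of 375 and 450 bp in the NFIA window, against 284 and 296 bp in the UT lists, and over the whole lists of 350 and 400 bp, against 268 and 300 bp. Widths were a multiple of 50 bp for 99.9 and 100% of the peaks in the MAML3 RA lists. In MAML3 UT 1 and UT 2 this share was 23.8 and 66.6%. Peak edges may thus not have been set alike, and the difference in width was not tested. The part of width in the joining of peaks was not tested beyond the 50% and 1 kb alternatives.

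**Figure D2:**
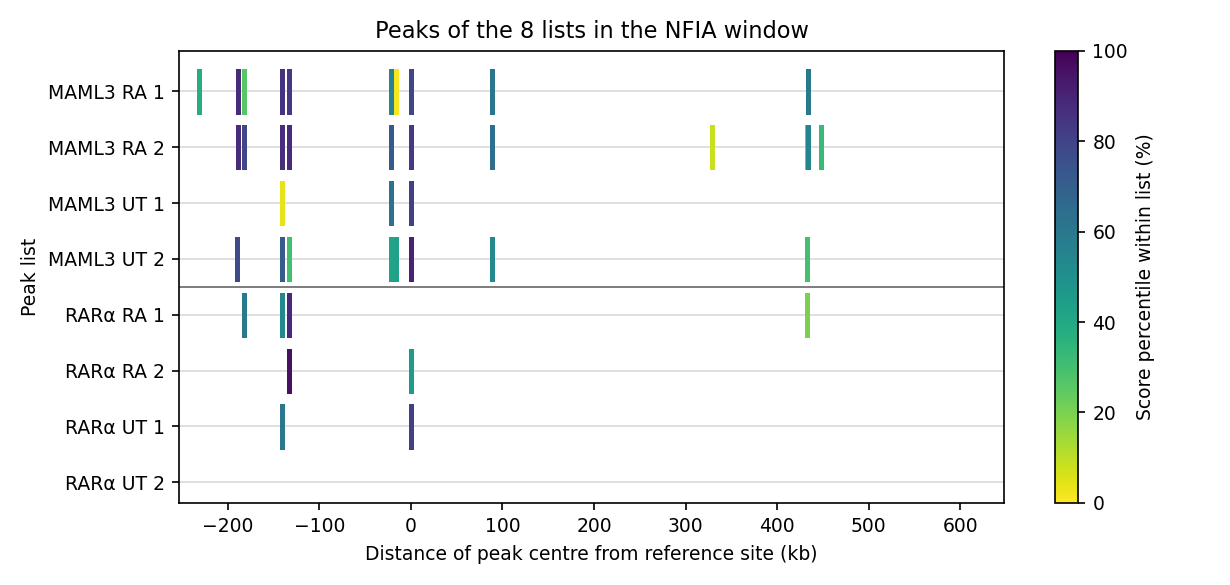
Peaks in the NFIA window, 1 row for each list, with MAML3 above and RARα below the line and RA lists above UT lists; the x axis is the distance in kb from the centre of the MAML3 site at 61352350 to 61352899, and colour is the score percentile within the list. The RARα peaks at -133 kb stand in the 2 RA lists and in no UT list, and RARα UT 2 has no peak in the window.

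The NFIA window had 3 MAML3 sites that all 4 lists held, 23.1% of its sites, against 16.8% of the 10251 MAML3 sites of the whole genome. The first, on chromosome 1 at 61212150 to 61212649, had percentiles of 85.8 and 87.3 in the RA lists, against 4.05 and 71.1 in the UT lists. Its RA values were above both UT values, and the peak in MAML3 UT 1 was near the bottom of that list. The second, at 61330600 to 61331222, had 55 and 72.3 in the RA lists, against 62.2 and 42 in the UT lists, so the treatments overlapped. The last, at 61352350 to 61352899, had 78.7 and 82.8 in the RA lists, against 80.7 and 90.4 in the UT lists. It ranked 1609 and 1071 from the top of the RA lists, against 430 and 653 in the UT lists, and the treatments overlapped here too.

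Other MAML3 sites of high rank in the NFIA window were missing from the short list MAML3 UT 1. The site at 61163096 to 61163699 had the highest mean percentile of the window, 84.5, with 88.2 and 87.8 in the RA lists, against 77.6 in UT 2. The site at 61219050 to 61219549 had 84.3 and 88.1 in the RA lists, against 29.8 in UT 2. It ranked 1182 of 7532 and 744 of 6230 after RA, against 4747 of 6759 in UT 2. The site at 61440646 to 61441149 had 60.9 and 63.9 in the RA lists, against 53 in UT 2. At these 3 sites each RA value was above the UT 2 value, and the gap was widest at 61219050 to 61219549. Over the genome, 3966 MAML3 sites were held by both RA lists and UT 2, and their mean RA percentile minus the UT 2 percentile had a median of -0.671 (quartiles -10.7 and 9.75). The difference of 56.4 points at 61219050 to 61219549 was reached by 51 of them (1.29%). The other 5 such sites of the NFIA window lay between -9.62 and 21.7. The difference of 56.4 points was the widest of both windows and rests on 1 UT list. Its share of 1.29% is therefore a description and no test.

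RARα peaks lay on the same piece of DNA. The RARα site at 61219095 to 61219544 was held by both RA lists, at percentiles of 88.5 and 95.8, and by neither UT list. It ranked 128 of 1103 in RA 1 and 46 of 1064 in RA 2. The centres of this site and of the MAML3 site at 61219050 to 61219549 were 20 bp apart. A site that both RA lists and neither UT list held is called gained here, and a site in the opposite case lost. Gained RARα sites were 1 of 5 in the NFIA window, against 5.42% of 2120 in the genome, and this one ranked 4 of 115 by mean percentile. Of the 115 gained RARα sites, 88 (76.5%) lay on a site of both MAML3 RA lists and 79 (68.7%) on a site of at least 1 MAML3 UT list, as this one did. With 5 sites in the window, 1 gained site cannot be set apart from that background. Without RARα RA 2 the gained number was 3, and without any other RARα library it was 1.

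The remaining RARα sites of the NFIA window stood in 1 or 2 lists. That at 61212257 to 61212567 had a percentile of 53.1 in RA 1, against 59.8 in UT 1. That at 61352450 to 61352899 had 45.2 in RA 2, against 81.5 in UT 1. Both lay on MAML3 sites of all 4 lists, and neither treatment held them in both replicates. RARα RA 1 alone held the sites at 61170793 to 61171035 (percentile 59.5) and 61785519 to 61785709 (percentile 20).

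MAML3 sites gained with RA in the NFIA window numbered 2 of 13 (15.4%), against 9.37% in the genome, and 0 were lost, against 0.683%. The site at 61170600 to 61171099 had 26.5 and 78.9 in the RA lists and overlapped the peak that RARα RA 1 alone held. It lay 6900 bp beyond the site at 61163096 to 61163699. Of 961 gained MAML3 sites in the genome, 84 (8.74%) likewise overlapped a RARα RA list and no RARα UT list. The site at 61786350 to 61786649 had 59.4 and 54.3 in the RA lists. It lay 650 bp from a weaker MAML3 site at 61785446 to 61785699, which had 22 in RA 2, against 29.7 in UT 2, so that joining peaks across 1 kb left 1 gained site. The 2 gained sites had mean percentiles of 52.7 and 56.9, at places 234 and 195 among the 961. Both were above the median of the 961, which was 36.2. Without MAML3 RA 1 the gained number was 4 and without MAML3 UT 2 it was 5, while without MAML3 RA 2 it was 3 and without MAML3 UT 1 it stayed at 2. With the lists cut to the 2222 highest-scoring peaks it was 1, and that site was the one at 61219050 to 61219549.

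**Figure D3:**
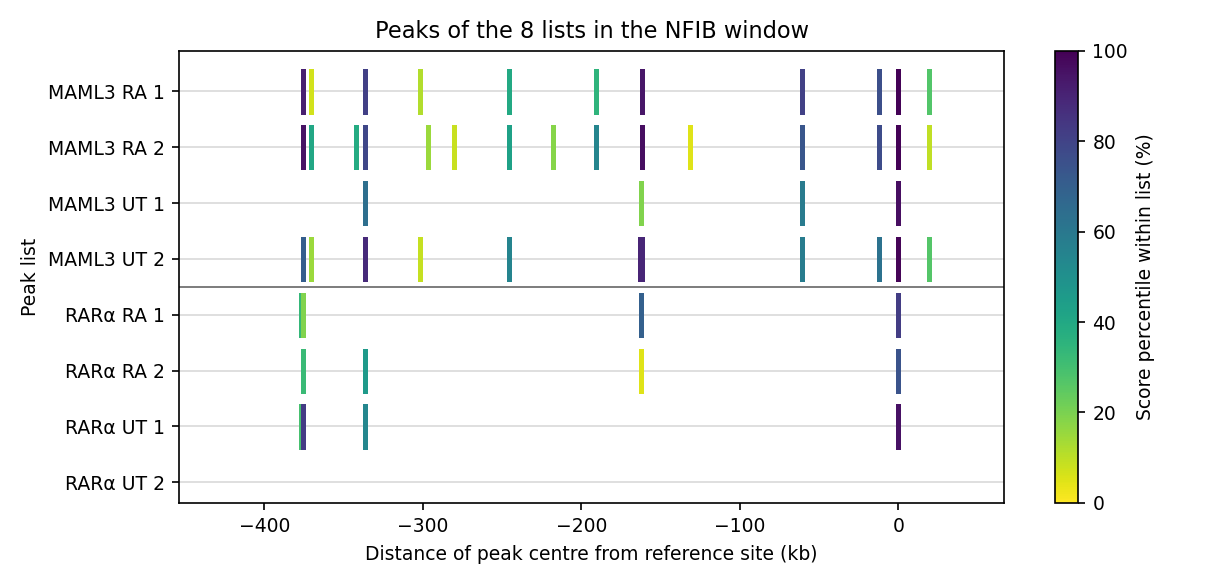
Peaks in the NFIB window, 1 row for each list, with MAML3 above and RARα below the line and RA lists above UT lists; the x axis is the distance in kb from the centre of the MAML3 site at 14433151 to 14433809, and colour is the score percentile within the list. The site at 0 kb has a peak in 7 lists, and RARα UT 2 has no peak in the window.

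The NFIB window had 4 MAML3 sites of all 4 lists, 23.5% of its 17 sites. The highest of them, on chromosome 9 at 14433151 to 14433809, had percentiles of 99.3 and 99.4 in the RA lists, against 96.3 and 99 in the UT lists. It ranked 50 and 38 from the top after RA, against 84 and 70 in UT. It led the window in all 4 lists. RARα was on this site as well, at 82.2 and 74.6 in the RA lists, against 95.4 in UT 1. It was the site of either window with the most lists, 7 of 8, the missing one being RARα UT 2. Of the peaks of RARα UT 1 above the 95th percentile, 55 of 67 (82.1%) were on RARα UT 2, and this peak was not. The numbered peaks of RARα UT 2 skip 35.1% of their numbers, the largest share of the 8 lists. Its absence here and at the other sites of both windows may thus be that of peaks not analysed here.

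At 14271299 to 14271748 MAML3 had 94.2 and 96.3 in the RA lists, against 19.1 and 89.1 in the UT lists. The peak of UT 1 was 67 bp wide. UT 2 held a further peak 400 bp away, at 14270399 to 14270898, with a percentile of 90.1, and no other list held it. RARα was gained at this place, at 14271152 to 14271401, with 69.7 in RA 1 and 4.79 in RA 2. It was the gained site among 6 RARα sites of the window, and 1 in 6 cannot be set apart from the 5.42% of the genome. It ranked 81 of 115 gained sites, overlapped the MAML3 site by 103 bp, and in RA 2 stood on a peak of 73 bp near the bottom of the list. In the top 50% of each list it was no longer gained, nor in lists of equal length. Without RARα RA 2 the gained number of the window was 2, without RARα UT 1 it was 3, and without RARα RA 1 or RARα UT 2 it was 1.

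The other MAML3 sites of all 4 lists in the NFIB window differed in order. At 14096601 to 14097059 the percentiles were 81.2 and 78.8 in the RA lists, against 64 and 87.9 in the UT lists, so the treatments overlapped. In lists of equal length they were 36.2 and 40.5, against 64 and 63.2, with both RA values below both UT values. At 14372351 to 14372909 they were 80.6 and 73.2 in the RA lists, against 58.8 and 58.4 in the UT lists, with both RA values above both UT values. At equal length this order was not kept, with 34.3 and 25 in the RA lists, against 58.8 in UT 1. The site fell out of the cut UT 2 list, having ranked 2810 there, against 1461 and 1668 in the RA lists. UT 1 was thus above both RA lists and UT 2 below both, so the treatments overlapped. No RARα list held that site. RARα stood at 14096703 to 14096947, with 45.8 in RA 2, against 53.6 in UT 1. RARα RA 1 did not list it. Between 14058251 and 14271152 the numbered peaks of that list skip 2 numbers, and those of MAML3 UT 1 skip 1 between 14096975 and 14271358, so peaks there were not analysed here.

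Near the lower end of the NFIB window, the MAML3 site at 14057651 to 14058259 had 91.6 and 95.2 in the RA lists, against 70.7 in UT 2, and UT 1 did not hold it. The difference of 22.8 points to UT 2, the widest of the window, was reached by 12.6% of the 3966 sites, again a description. Of 9 such sites in the window, 6 had a higher mean RA percentile than UT 2, against 1849 of 3966 in the genome. RARα on it, at 14057651 to 14058008, had 69.1 and 32.1 in the RA lists, against 82.8 in UT 1. The MAML3 order rests on UT 2 alone and the RARα order on UT 1 alone, so the antibodies were not compared here. RARα RA 1 also held a peak at 14058093 to 14058251 (percentile 18.9), 84 bp further. At 14056302 to 14056524, 1126 bp before the MAML3 site, lay the RARα site of the windows without MAML3, with 33.4 in RA 1, against 29.3 in UT 1.

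The MAML3 site gained with RA in the NFIB window was at 14242410 to 14243000, with percentiles of 34.8 and 54.4 in the RA lists. It was 1 of 17 (5.88%), below the 9.37% of the genome, ranked 361 of 961 and had no RARα peak. MAML3 UT 1 skips 1 peak number between 14096975 and 14271358, a span that holds this site, so its absence from that list may be that of a peak not analysed here. None of the 17 was lost. Without MAML3 RA 1 or without MAML3 UT 2 the gained number was 6. Without MAML3 UT 1 it was 1, and 1 site was lost, at the extra peak of UT 2 described above. In the top 50% of each list it was 0.

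**Figure D4:**
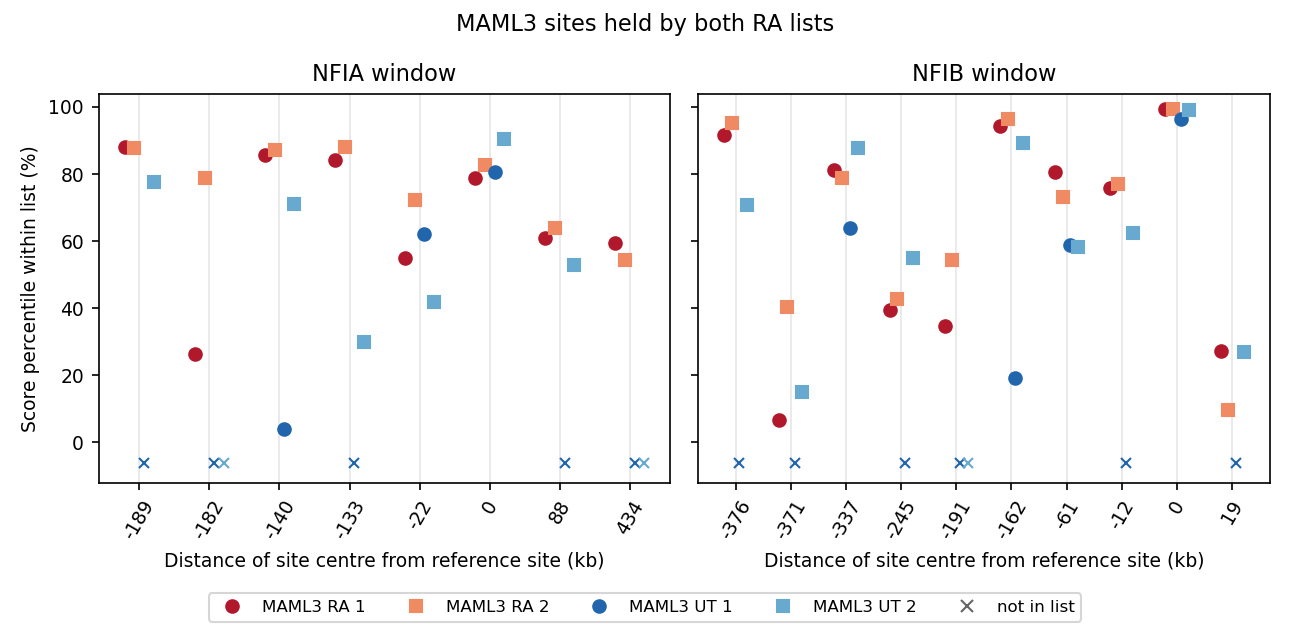
Score percentile within each MAML3 list (y axis) at the MAML3 sites that both RA lists held, 8 in the NFIA window (left) and 10 in the NFIB window (right), labelled by distance in kb from the reference site of the window; RA lists are red and orange, UT lists dark and light blue, and crosses below 0 mark a list without a peak. MAML3 UT 1, the short list, lacked 5 of the 8 and 6 of the 10 sites, and the site at -133 kb in the NFIA window had 84.3 and 88.1 in the RA lists, against 29.8 in UT 2.

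Over the sites of all 4 MAML3 lists, the mean percentile was 73.2 and 80.8 in the RA lists, against 49 and 67.8 in the UT lists, for the 3 NFIA sites. For the 4 NFIB sites it was 88.8 and 86.9, against 59.5 and 83.6. RA minus UT came to 18.6 and 16.3 points, but with all lists cut to 2222 peaks to 6.98 points over 2 NFIA sites and 6.09 over 3 NFIB sites. The short list MAML3 UT 1 had the lowest mean in both windows. The same measure was not computed over the 1724 such sites of the genome, so no background stands beside these differences. At equal length the site at 61352350 to 61352899 had 27.6 and 51.8 in the RA lists, against 80.7 and 70.7 in the UT lists, the opposite order to that at 61212150 to 61212649, which had 51.8 and 64.3, against 4.05 and 12.2.

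The other MAML3 sites were mostly low in their lists. In the NFIA window 3 sites stood in 1 RA list each, at percentiles of 8.45 to 37.9, and the site at 61335996 to 61336249 had 1.04 in RA 1, against 43.7 in UT 2. In the NFIB window RA 2 alone held 5 sites, at 4.91 to 38.9. The site at 14421251 to 14421759 was the highest of the rest, with 75.9 and 77.1 in the RA lists, against 62.4 in UT 2, and was the gained site of the window when the lists were of equal length. Further NFIB sites of 2 or 3 lists, at 14062651, 14131460, 14187951 and 14452701, had mean percentiles of 10.2 to 45.8.

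Most MAML3 sites of both RA lists were also in a UT list. The NFIA window had 8 such sites, of which 2 were in neither UT list, and the NFIB window had 10, of which 1 was in neither. Over the genome 961 of 4947 (19.4%) were in neither. For RARα the numbers were 1 of 1 and 1 of 3, against 115 of 557 (20.6%). List by list, 70% of the NFIA peaks of MAML3 RA 1 and 63.6% of those of RA 2 lay on a peak of UT 2, against 65.8 and 69.7% over the whole lists. For NFIB these shares were 90.9 and 60%. Pairs with the same lane tag (RA 1 with UT 2, RA 2 with UT 1) shared 7 of 10 and 3 of 11 RA peaks in the NFIA window, and 10 of 11 and 4 of 15 in the NFIB window. The second of each was set against the short list. For RARα, RA 2 and UT 1 had the same lane tag, and 1 of 2 RA peaks in the NFIA window and 3 of 4 in the NFIB window lay on a UT 1 peak.

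RARα sites of the windows lay mostly on MAML3. In the NFIA window 5 of 5 overlapped a MAML3 site and in the NFIB window 5 of 6, against 84.4% of the 2120 RARα sites of the genome, so the shares are near that background. Without RARα RA 1 the NFIA window held 3 RARα sites, all on MAML3. From the MAML3 side, 5 of 13 sites in the NFIA window (38.5%) and 4 of 17 in the NFIB window (23.5%) carried a RARα peak, against 17% of the genome. Among MAML3 sites of all 4 lists it was 2 of 3 and 3 of 4, against 961 of 1724 (55.7%). No RARα site of the windows was in all 4 RARα lists, against 6.75% of the genome, and none was lost, against 0.472%, since RARα UT 2 had no peak in either window.

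The edges of the windows were set by position. Inside the NFIA window the outermost MAML3 sites were at 61121500 to 61121799 and 61800700 to 61801049, each in 1 RA list with percentiles of 37.9 and 32.6. The nearest MAML3 sites outside were each in 1 RA list, at 61087000 to 61087349, 12.7 kb below, and at 62433450 to 62433699, 433 kb above. For NFIB the outermost inside were at 14057651 to 14058259 and 14452701 to 14452959, each in both RA lists and UT 2. Outside, the next MAML3 site below lay 365 kb away, and the one above, at 14517208 to 14517596, lay 17.2 kb away and was in all 4 lists. RARα sites came no nearer to the outside of an edge than 354 kb for NFIA, and for NFIB a site of 1 UT list lay 17.3 kb above. Widened by 100 kb on each side, the windows had the same numbers of gained sites.

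Stretches whose peaks per 1000 listed peaks over the 8 lists came closest to each window were also found, by the summed absolute difference. For NFIA these were chromosome 11 from 127800001 to 128700000 (summed difference 1.82), chromosome 12 from 89100001 to 90000000 (2.27) and chromosome 15 from 73800001 to 74700000 (2.39). For NFIB they were chromosome 11 from 71760001 to 72280000 (3.99), chromosome 4 from 151320001 to 151840000 (4.03) and chromosome 10 from 54080001 to 54600000 (4.22). Each of these 6 also had 0 peaks in RARα UT 2, which was among the 8 lists used to choose them, so this is no separate likeness. The 8 values share list length and overlapping peaks, so the likeness is a description.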

How the data were processed

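Each library has 1 deposited list with chromosome, start, end, peak name and 1 number per peak. That number is a score per peak, as deposited by the authors, with no header to say how it was made. It is never below 70, and here it served to order the peaks of 1 list. BWA 0.5.9, MACS, bedtools and the hg19 build stand in the submitters' processing notes without settings. The peak threshold and any use of an input are not stated in those sources. The 2 input samples were not analysed here. The numbered peaks skip 2.86 to 35.1% of their numbers, and those peaks were not analysed here. The members, site rules and lists were chosen with earlier results of these data known.

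Peaks were assigned to the windows when they overlapped them, and positions start at 1. Percentiles are mean ranks within a list. Sites were made by joining peaks that overlap by 1 bp. On simulated lists the joining gave back the set classes, but those peaks were of equal width and their sites lay far apart. Close sites and peaks of unequal width were not tried there. Sites were named by rule: every RARα site, MAML3 sites gained, lost or in all 4 lists, the 5 with the highest mean percentile, and those at the edges; others were chosen after their values were seen. Alternatives were an overlap of 50%, gaps of 1 kb, the top 50% of peaks, lists of equal length (2222 or 251 peaks), other window edges, ties at the lowest rank, MAML3 sites of at least 2 lists, and each replicate left out. Depth is unknown, and gives no measure of precision. Python 3.11.15, numpy 2.4.6 and scipy 1.17.1 were used.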

Additional observations from a re-analysis of the deposited data

How the results depend on the processing

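Of 64 recomputed values, 48 stayed within 1.5 times the reported count or within the replicate spread, and 16 did not. The tally compares numbers only, and an unchanged number could stand for other sites. In the top 50% of each list 2 MAML3 sites were gained in the NFIA window, but that at 61219050 replaced that at 61170600. With lists of equal length the gained MAML3 site of the NFIB window was at 14421251 in place of 14242410. With gaps of up to 1 kb bridged, 1 MAML3 site was gained in the NFIA window in place of 2, because the gained peak at 61786350 then joined its neighbour. In the top 50% of each list, 0 MAML3 and 0 RARα sites were gained in the NFIB window in place of 1 each. With lists of equal length, 1 MAML3 site was gained in the NFIA window, 0 RARα sites were gained in the NFIB window, and 2 RARα sites in each window lay on MAML3, of 2 left in each. There, the mean RA minus UT percentile of the MAML3 sites in every list of the NFIA window was 6.98 points over 2 sites, against 18.6 over 3 in the full lists. For the NFIB window it was 6.09 points over 3 sites, against 16.3 over 4. That fall counted as unchanged only because the replicate spread was 12.1 points. With 1 replicate left out, the gained number ranged from 2 to 5 (MAML3) and 1 to 3 (RARα) for NFIA and from 1 to 6 (MAML3) and 1 to 3 (RARα) for NFIB. RARα sites on MAML3 ranged from 3 to 5 for NFIA and 4 to 5 for NFIB. Fewer lists make the rule for a gained site easier to meet, by its construction. No paired analysis was possible because the counts come from no fitted test in which the replicate number could be a block; the pairs by lane tag in the report are counts. Read depth is not known, and absence from a peak list, above all from the short lists MAML3 UT 1 and RARα UT 2, does not show that a site was free of protein.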
